A study of Mus musculus with 8 samples.

Results

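The genes described are those of the glutamate receptors and their auxiliary subunits. They were chosen by name from the non-control probes of a mouse expression array: the AMPA subunits Gria1 to Gria4, the NMDA subunits Grin1, Grin2a to Grin2d, Grin3a and Grin3b, the kainate subunits Grik1 to Grik5, the Grm metabotropic receptors, the Grid delta receptors, and the auxiliary subunits Cacng2, Cacng3, Cacng4, Cacng8, Cnih2, Cnih3, Neto1 and Neto2. These are 34 genes with 52 probes, out of 55681 non-control probes on the array. Of the 34 genes 33 were measured, among 29529 genes tested, and 32 of the 33 were well above background on all 8 arrays.

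RNA bound to tagged ribosomes was collected from the hippocampus of 8 mice and hybridised to 8 arrays, 1 array per mouse. All 8 mice were adult, at least 3 months old, of C57BL/6 background and untreated, and each group held 3 males and 1 female. All 8 were positive for Camk2a-Cre and for the RiboTag allele of Rpl22, which gives Cre-expressing cells a tagged ribosomal protein that an anti-HA antibody pulls down. The 4 WT mice are labelled Ctcf wild type, and the 4 CKO mice carried the floxed Ctcf alleles (loxP/loxP). The series' own design text describes its controls as loxP/loxP mice instead, and the sample labels were followed here. Ctcf encodes a zinc finger protein that organises chromosome loops, and the comparison asks how the transcripts of Camk2a-Cre neurons differ without it. Camk2a drives the Cre in forebrain excitatory neurons, so that hippocampal interneurons and glia are not its targets.

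Glutamate is the main excitatory transmitter of the hippocampus. AMPA receptors carry the fast synaptic current, NMDA receptors admit calcium when presynaptic release and postsynaptic depolarisation coincide, and kainate receptors act on both sides of the synapse, with a known place at mossy fibre synapses of CA3. Metabotropic receptors signal through G proteins, and delta receptors bind cerebellins and organise synapses. The auxiliary subunits change the trafficking and gating of AMPA receptors (the Cacng and Cnih proteins) or of kainate receptors (the Neto proteins).

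For each gene the array holds 1 to 3 probes of 60 bases, and probes of a gene need not give the same value. The stretches shown, taken from the deposited array files, are the first 30 bases of probes of Grin3a and Neto2, the genes with the smallest p-values among the members, and of Gria2, Grin2b and Cnih2, whose paired probes gave different patterns over the mice or overlap. Positions are counted from the start of the transcript. All lie on the minus strand, and the build is mm9 as in the file headers. The capitals in the Cnih2 stretches mark the 16 shown bases that both of its probes share, out of 46 shared bases in all.

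Grin3a probe at position 4036, chr4:49678098-49678157: gtaagcaggaagacagagcttgaggagtat
Grin3a probe at position 7446, chr4:49674688-49674747: agctgccagtcattttatgaaaatgaagtg
Neto2 probe at position 4565, chr8:88161508-88161567: acactttgttgcaaaatgatgtctgccata
Neto2 probe at position 1757, chr8:88164316-88164375: tctccgcatccaatcttgttctatcaaatt
Gria2 probe at position 3120, chr3:80495725-80495784: tttaatttgggggatattccttggggaaaa
Gria2 probe at position 6781, chr3:80488858-80488917: tttcatactttacctaatggcaatctggag
Grin2b probe at position 5615, chr6:135681653-135681712: aaggtgtttatctaaggaaggccattgaac
Grin2b probe at position 7202, chr6:135680066-135680125: tttacctcagtatctctcatttaaatgcca
Cnih2 probe at position 1295, chr19:5092882-5092941: ttgcctggaggagtCCAGCACCCCATCCCC
Cnih2 probe at position 1309, chr19:5092868-5092927: CCAGCACCCCATCCCCtgacatttgtgaca

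The first probe listed for each gene is the brighter one and stands for the gene below. Values are normalized log2 signals: log2 of the background-subtracted spot intensity minus the 75th percentile of its array, so that a negative value is dimmer than that percentile and says nothing of another probe's level. Differences are CKO minus WT on the same log2 scale, with the standard error (SE) of the limma fit and n = 4 mice per group.

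On the CKO 3 array 72.2% of probes were well above background, against 77.2% to 81.5% on the other 7. The arrays came from 3 slides. Slide 1 held WT 1 alone, slide 2 held WT 2 and WT 3 beside CKO 1 and CKO 2, and slide 3 held WT 4 beside CKO 3 and CKO 4. Ctcf itself was lower in the CKO mice by a log2 difference of -0.87 (SE 0.22), to 54.8% of WT, with no overlap of the groups (exact permutation test, two-sided, p = 0.0286). Its adjusted p over all genes was 0.724 in limma.

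No glutamate receptor or auxiliary subunit gene differed between CKO and WT mice past the threshold. Across all genes tested 1 passed an adjusted p of 0.05 (0.00339% of 29529), and 0 of the 33 members did, with adjusted p-values between 0.724 and 0.997 (limma, Benjamini-Hochberg). At an unadjusted p under 0.05 the member count was 1 higher, Grin3a, and 0 lower, where 2.5% of all genes were higher and 2.8% lower, 5.3% in all. For 0 of the 33 members did the 4 CKO values lie apart from the 4 WT values, which was so for 3.32% of all genes (1.96% higher and 1.36% lower in CKO). Read against these shares, a count of 1 and a count of 0 among 33 genes are near the background.

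How large a difference the data leave room for is given by the 95% intervals. For 28 of the 33 members the whole interval lay within 1 on the log2 scale, that is, within a 2-fold change either way, against 73.3% of all genes. Within 0.5 lay 11 of the 33, against 11.6% of all genes. These shares cover genes of every signal level, while 24 of the 33 members were in the 4 brightest of 10 groups ranked by mean signal. No share for genes of like signal is given. The members' SEs ran from 0.16 to 0.92 with a median of 0.18, where the median over all genes was 0.23. The 5 members with wider intervals were Gria2, Grik4, Grm6, Cacng4 and Neto2, and for these the data do not bound the difference to 2-fold.

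The sign of the members' differences leaned upward under the chosen scaling. It was positive for 21 and negative for 12, with a median of 0.064, while over all genes 41.5% were positive and the median was -0.078. Signal and scaling both moved with this lean. When all genes were ranked by mean signal and divided into 10 groups of equal size, the median difference was -0.52 in the dimmest group and 0.16 in the brightest, and 24 of the 33 members were in the 4 brightest groups. Set against the median of its own signal group, 16 members were above and 17 below. With quantile normalization 15 of the 33 were positive (median -0.0056), with normexp correction and quantile normalization 17 (0.0045), with the authors' deposited values 11 (-0.072), and with median scaling 27 (0.21). In the authors' deposited values 15474 spots were blank on CKO 3 and 11030 to 13065 on the other arrays. Here and below, each array of them was set to the 75th percentile of its probes with a value. What the blanks add to these differences was not tested. Slides 2 and 3 held both groups, and slide 1 held WT 1 alone. With the slide as a fixed block, here and below, WT 1 thus adds nothing to the difference. That difference rests on WT 2, WT 3 and WT 4 beside the 4 CKO mice. Under this block 16 of the 33 were positive (median -0.011).

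**Figure D1:**
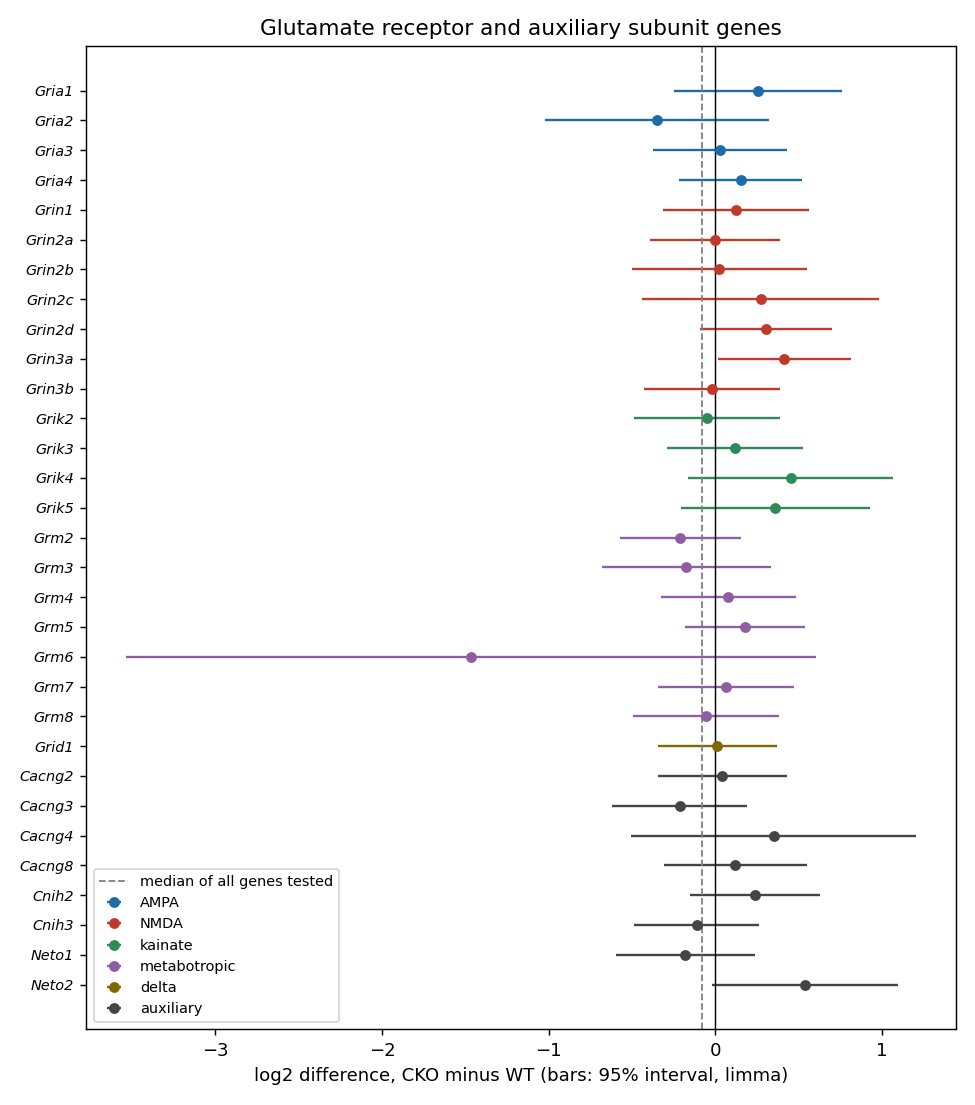
Log2 difference, CKO minus WT, of 31 of the 33 measured members (horizontal axis), by family (vertical axis). Points are limma estimates from 4 mice per group and bars are 95% intervals. All but 1 of the intervals, that of Grin3a, cover 0, and the interval of Grm6 is the widest, from -3.54 to 0.60.

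**Figure D2:**
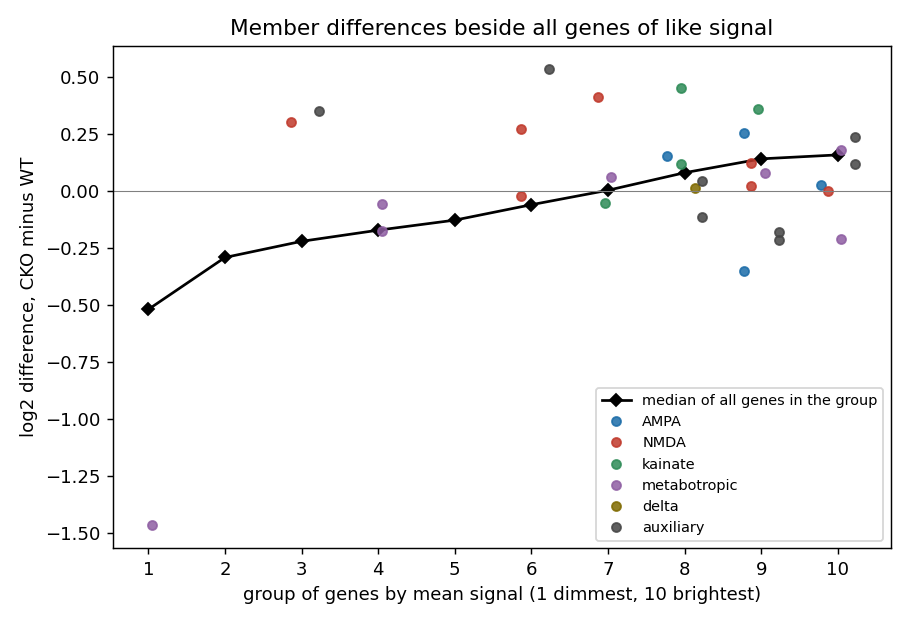
Log2 difference, CKO minus WT (vertical axis), by group of genes ranked on mean signal (horizontal axis, group 1 the dimmest and group 10 the brightest). Coloured points are 31 members by family and black diamonds the median of all genes in the group. The median over all genes goes from -0.52 in the dimmest group to 0.16 in the brightest, and members lie on both sides of it.

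Among the NMDA receptor genes none passed the adjusted threshold, and Grin3a had the largest difference. All 7 were well above background on every array. Their median difference was 0.12, 5 were positive and 2 negative, and all 7 intervals lay within 1. With quantile normalization 3 of the 7 were positive and with median scaling all 7.

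Grin3a encodes a subunit that lowers the calcium permeability of NMDA receptors. WT mice 1 to 4 had Grin3a signals of -0.44, 0.06, -0.52 and -0.36, and CKO mice 1 to 4 had 0.26, -0.07, 0.13 and 0.07. Of the 4 CKO mice 3 were above the highest WT mouse, WT 2, and CKO 2 was just under it. The difference was 0.41 (SE 0.18, 95% interval 0.014 to 0.81), a 1.33-fold ratio, with an unadjusted limma p of 0.0438 and an adjusted p of 0.724, so that it did not pass. Within slide 2 it was 0.33 and within slide 3 0.46. With the slide as a fixed block it was 0.38, with an unadjusted limma p of 0.080. Leaving out WT 1, WT 3, WT 4, CKO 1, CKO 3 or CKO 4 put the unadjusted p above 0.05, with values of 0.102, 0.117, 0.0746, 0.114, 0.0749 and 0.0714, while the difference stayed between 0.33 and 0.60 over 25 other settings.

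The second Grin3a probe, further along the transcript, gave a value of the same sign. On it WT mice 1 to 4 had -2.27, -2.81, -3.29 and -2.40, and CKO mice 1 to 4 had -1.83, -2.55, -1.48 and -1.73. Again 3 of the 4 CKO mice were above every WT mouse. The difference was 0.79 (SE 0.30), with an unadjusted p of 0.0262 and an adjusted p of 0.738 in the limma fit of each probe. These were the only 2 of the 51 kept member probes with an unadjusted p under 0.05, a share no higher than the 5.3% of all genes at that p. Both probes measure the same RNA of the same mice, so the second is no replicate of the first.

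Grin2d, a subunit known from interneurons and early development, had WT signals of -2.96, -2.76, -2.85 and -2.68 and CKO signals of -2.61, -2.37, -2.23 and -2.82 in mice 1 to 4. CKO 4 lay among the WT mice and the other 3 CKO mice above them. The difference was 0.30 (SE 0.18) and the unadjusted limma p 0.116. Without CKO 4 it was 0.41, with an unadjusted limma p of 0.0498. That was the only 1 of 25 other settings with an unadjusted p under 0.05. With the slide as a fixed block the Grin2d difference was 0.25 (unadjusted limma p 0.212).

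In bulk RNA of this kind fewer cells of a type and less RNA per cell cannot be told apart. Interneuron markers, 7 of 8 measured, had a median difference of 0.15 and 6 of the 7 were positive. Their summed level was 2.93 to 3.38 in the WT mice and 2.92 to 3.59 in the CKO mice (log2 of the mean linear signal). Vip was well above background on 3 arrays at most and was not measured. The part of interneuron RNA in the Grin2d value was not tested.

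The obligatory subunit Grin1 differed by 0.12 (SE 0.19) on its main probe and 0.25 on its other. Grin2a, which shortens the decay of the synaptic current, differed by -0.0018 (SE 0.17). Grin2b, its slower counterpart, differed by 0.02 (SE 0.23). Their 95% intervals were -0.39 to 0.39 for Grin2a and -0.50 to 0.55 for Grin2b. Grin2c, a subunit best known from the cerebellum, differed by 0.27 (SE 0.31) and Grin3b by -0.021 (SE 0.18).

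Among the AMPA receptor genes none passed, and the 2 probes of Gria2 differed in sign. The median difference over the 4 genes was 0.091, with 3 positive and 1 negative. With quantile normalization 2 of the 4 were positive and with the authors' deposited values 1 was.

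Gria2 encodes the subunit that makes AMPA receptors impermeable to calcium. Here WT mice 1 to 4 had signals of 2.97, 2.27, 1.98 and 1.78, and CKO mice 1 to 4 had 1.61, 1.86, 1.65 and 2.47. WT 1 was the highest of the 8 and CKO 4 the second, so the groups overlapped. The difference was -0.35 (SE 0.30, 95% interval -1.02 to 0.32), with an unadjusted limma p of 0.266. It was -0.39 within slide 2 and 0.28 within slide 3, and without WT 1, which lay alone on its slide, it was -0.11.

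On the other Gria2 probe, further along the transcript, WT mice 1 to 4 had -0.75, -1.43, -1.28 and -0.90 and CKO mice had -1.12, -1.16, -0.74 and -0.59. Its difference had the opposite sign, 0.19 (SE 0.22). Over the 8 arrays the 2 probes correlated at 0.283, a description of these arrays. With probes of opposite sign no direction is given for Gria2.

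Gria1, the subunit inserted during synaptic potentiation, had WT signals of 2.60, 2.16, 1.96 and 2.52 and CKO signals of 2.49, 2.20, 2.98 and 2.59. Only CKO 3 was above the highest WT mouse. The difference was 0.25 (SE 0.22), and without CKO 3 it was 0.12. Gria3 differed by 0.029 (SE 0.18) and Gria4, a subunit prominent in interneurons, by 0.15 (SE 0.16).

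**Figure D3:**
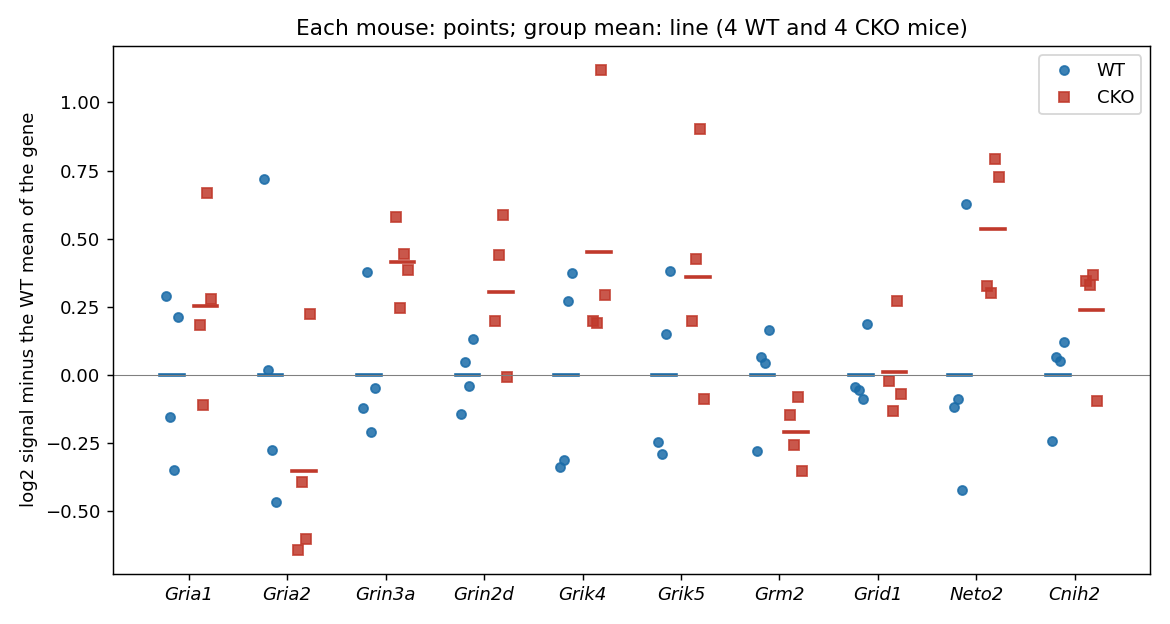
Normalized log2 signal minus the gene's WT mean (vertical axis) for 10 of the members named with their values in the text (horizontal axis). Blue circles are the 4 WT mice, red squares the 4 CKO mice and lines the group means. The groups overlap for every gene shown, and CKO 3 is the highest mouse for Gria1, Grik4 and Grik5 among others.

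Kainate receptor genes had the highest median difference of the families, 0.24 over 4 measured genes, of which 3 were positive and 1 negative. None passed, and 1 mouse, CKO 3, moved the value most. With it left out the median was 0.099, and in CKO 3 the family's median lay 0.66 above the WT mean. Under median scaling, quantile normalization, normexp and the authors' deposited values the median stayed positive, at 0.38, 0.14, 0.19 and 0.12.

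Grik4 and Grik5 encode the high-affinity subunits, which need a partner of the Grik1 to Grik3 group to form a channel. Grik4 had WT signals of 0.50, 0.52, 1.11 and 1.21 and CKO signals of 1.04, 1.03, 1.96 and 1.13 in mice 1 to 4. CKO 3 was far above the other 7 mice, and the other 3 CKO mice lay within the WT range. The difference was 0.45 (SE 0.27, unadjusted limma p 0.131) and 0.23 without CKO 3.

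Grik5 had WT signals of 2.15, 2.11, 2.55 and 2.78 and CKO signals of 2.59, 2.82, 3.30 and 2.31. CKO 3 was again the highest, and CKO 2 was just above the highest WT mouse. The difference was 0.36 (SE 0.25, unadjusted limma p 0.186), 0.18 without CKO 3, 0.38 within slide 2 and 0.025 within slide 3.

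Grik4 is also known as a marker of CA3 pyramidal cells. The list of 6 CA3 markers that contains it held values of both signs: 4 were positive and 2 negative, with a median of 0.10, and its other members ran from Cdh24 at -0.77 to Bok at 0.83. Whether the share of CA3 cells differed was not tested.

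The main low-affinity subunit Grik2 differed by -0.053 (SE 0.19) and Grik3 by 0.12 (SE 0.18). Grik1, a subunit known from interneurons, had 1 probe, which was well above background on 2 WT arrays and on 0 CKO arrays. Its measured means were -5.95 in WT and -6.42 in CKO, both near the dimmest signals that counted as well above background, -6.22 to -5.17 over the 8 arrays. The bound on its fold was below 1, so that no fold is given.

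Metabotropic receptor genes had a median difference of 0.0038, with 4 of the 8 positive and 4 negative and none past the threshold. With quantile normalization 3 of the 8 were positive and with median scaling 5. Grm5, which couples to Gq and calcium release, differed by 0.18 (SE 0.16), and by -0.085 with the authors' deposited values. Grm2 and Grm3, which inhibit adenylyl cyclase, had values of -0.21 (SE 0.16) and -0.17 (SE 0.22), and both were below 0 under all 4 other scalings. Within slide 3 Grm3 was at 0.024.

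Grm2 is known from dentate granule cells and their mossy fibres. In WT mice 1 to 4 it had signals of 3.72, 4.07, 4.04 and 4.16, and CKO mice 1 to 4 had 3.85, 3.74, 3.92 and 3.65. All 4 CKO mice lay below the WT mean of 4.00 (SD 0.19, n = 4), the only member for which this was so, but WT 1 lay among them. The unadjusted limma p was 0.222 and the 95% interval -0.57 to 0.15. The difference was negative in all 25 other settings and ranged from -0.51 to -0.066. Its unadjusted limma p was 0.0196 with quantile normalization, 0.0122 with normexp and quantile normalization, 0.00593 with the authors' deposited values and 0.00845 with the slide as a block after quantile normalization. These 4 were the only ones of the 25 under 0.05. The unadjusted limma p was 0.771 with median scaling and 0.0579 with the slide as a fixed block. Over the 25 settings the smallest adjusted p of Grm2 was 0.434.

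Dentate gyrus markers had mostly negative values. Their per-mouse median, relative to the WT mean, was -0.21 to 0.34 in WT mice and -0.53 to -0.23 in CKO mice, and 1 of the 6 was positive, here and under the 4 other scalings. Their summed level was 0.86 to 1.38 in WT and 0.67 to 1.11 in CKO mice. Of the 6 markers 1, Tdo2, had an unadjusted p under 0.05 (-0.72, SE 0.26, adjusted limma p 0.724). The part of dentate granule cell RNA in the Grm2 value was not tested.

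Grm6, the receptor of retinal ON bipolar cells, was at the limit of detection. Its signals in WT mice 1 to 4 were -4.74, -4.40, -4.26 and -7.72, and in CKO mice 1 to 4 they were -4.51, -7.36, -7.37 and -7.74. The probe was well above background on 3 WT arrays and 1 CKO array, and the 4 lowest values are not above background. The difference was -1.47 (SE 0.92, 95% interval -3.54 to 0.60). It was -0.21 with normexp correction, 0.16 within slide 3, and -2.28 without WT 4 (unadjusted limma p 0.0141) and -2.21 without CKO 1 (unadjusted limma p 0.021). Values from arrays on which the probe was not well above background are bounds and have no order among themselves.

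The other receptors that inhibit adenylyl cyclase had values on both sides of 0. Grm4 differed by 0.077 (SE 0.18), Grm7 by 0.064 (SE 0.18) and Grm8 by -0.056 (SE 0.19), and all 3 intervals lay within 0.5.

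Grid1, the delta receptor found in the forebrain, did not differ detectably between the groups. It had WT signals of 1.05, 1.04, 1.00 and 1.28 and CKO signals of 1.07, 0.96, 1.37 and 1.03. The groups overlapped fully, with a difference of 0.013 (SE 0.16) and an interval of -0.34 to 0.37.

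Of the auxiliary subunits none passed, and Neto2 had the largest value. The median difference over 8 genes was 0.080, with 5 positive and 3 negative. With quantile normalization 3 of the 8 were positive and with the authors' deposited values 2.

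Neto2 encodes a transmembrane partner that slows the desensitisation of kainate receptors. For it WT mice 1 to 4 had signals of -0.79, -0.76, -1.09 and -0.05, and CKO mice 1 to 4 had -0.34, -0.37, 0.12 and 0.05. WT 4 lay above the other WT mice and above CKO 1 and CKO 2. It was also the only WT mouse on slide 3. Leaving WT 4 out sets every CKO mouse above the WT mice. CKO 3 and CKO 4 then have no WT mouse on their slide. The difference was 0.54 (SE 0.25, 95% interval -0.021 to 1.09), a 1.45-fold ratio, with an unadjusted limma p of 0.0576 and an adjusted p of 0.724. Without WT 4 it was 0.75 (unadjusted limma p 0.0054), a value in which slide and genotype are mixed.

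The Neto2 value was 0.57 within slide 2 (unadjusted limma p 0.0309) and 0.13 within slide 3, which holds WT 4, and the difference between slides was not tested. With the slide as a fixed block it was 0.39, with an unadjusted p of 0.0447, and with the slide as a random block 0.46, with an unadjusted p of 0.0307. With the fixed block Neto2 was thus under 0.05 and Grin3a was not. Over the 25 other settings Neto2 had an unadjusted p under 0.05 in 11 and passed the adjusted threshold in 0. Its other probe differed by 0.23 (SE 0.24). The related Neto1 differed by -0.18 on both of its probes, with an SE of 0.19 on the brighter and 0.24 on the other.

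Cnih2, the cornichon protein of hippocampal AMPA receptors, had WT signals of 4.03, 4.34, 4.32 and 4.40 and CKO signals of 4.62, 4.60, 4.64 and 4.18. CKO 1, CKO 2 and CKO 3 lay above every WT mouse and CKO 4 below 3 of them. The difference was 0.24 (SE 0.17, unadjusted limma p 0.201), and -0.047 with the authors' deposited values. The second Cnih2 probe, shifted by 14 bases from the first, gave 0.28, and the 2 correlated at 0.986 over the 8 arrays. Cnih3 differed by -0.11 (SE 0.17).

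The transmembrane AMPA receptor regulatory proteins had values on both sides of 0. Stargazin (Cacng2) differed by 0.042 (SE 0.17), Cacng8, the main hippocampal form, by 0.12 (SE 0.19), Cacng4 by 0.35 (SE 0.38) and Cacng3 by -0.21 (SE 0.18). For Cacng3 the unadjusted limma p of 0.264 became 0.0383 with the authors' deposited values (-0.42) and 0.0154 with the slide as a block after quantile normalization (-0.41).

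Where a gene had more than 1 kept probe, the probes did not always have the same sign. Of 16 such genes 9 had the same sign on all probes, and 7 did not: Gria2, Gria3, Grin2a, Grik2, Grm4, Grm5 and Cacng2. For Grin2b both probes were positive, at 0.02 and 0.22, yet they ran opposite ways over the mice. WT mice 1 to 4 had 1.91, 2.45, 2.71 and 2.23 on the first and 0.81, 0.79, 0.14 and 1.01 on the second. CKO mice had 2.47, 2.63, 2.43 and 1.88 on the first and 0.90, 0.31, 1.14 and 1.29 on the second. The mice with the highest signal on one, WT 3 and CKO 2, had the lowest on the other, and the correlation over the 8 arrays was -0.702. Both are females, on slide 2.

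**Figure D4:**
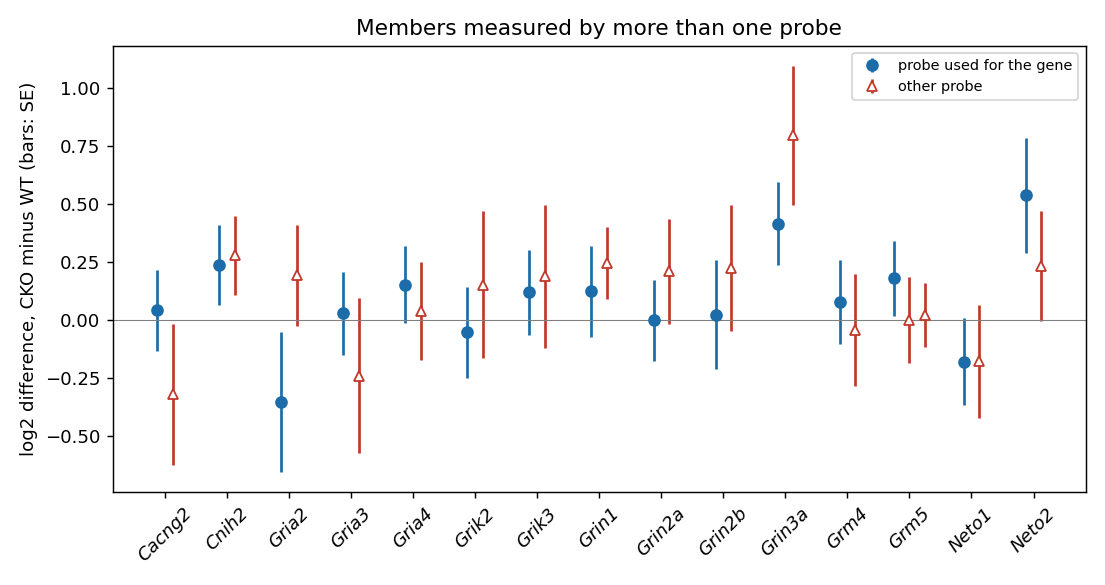
Log2 difference, CKO minus WT (vertical axis), of each kept probe of 15 members with more than 1 (horizontal axis). Filled circles are the probe used for the gene, open triangles its other probes and bars the SE. Both Grin3a probes lie above 0, while those of Gria2 lie on opposite sides of it.

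Across the mice the members' common level varied within both genotypes. Relative to the WT mean, the median over the 33 members was -0.094, 0.020, -0.047 and 0.16 in WT 1 to 4 and 0.14, -0.0016, 0.27 and -0.068 in CKO 1 to 4. The ranges overlapped: CKO 4 was below 3 WT mice and WT 4 above 3 CKO mice. CKO 3 was the highest of the 8 arrays for 17 of the 33 members, against 22.2% of all genes. With quantile normalization it was the highest for 14 of the 33. The share of all genes covers every signal level, while 24 of the 33 members were in the 4 brightest groups. No share for genes of like signal is given. Over all genes CKO 3 had the lowest value for 32.4%. Without CKO 3 the members' median was 0.017, beside -0.018 over all genes.

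**Figure D5:**
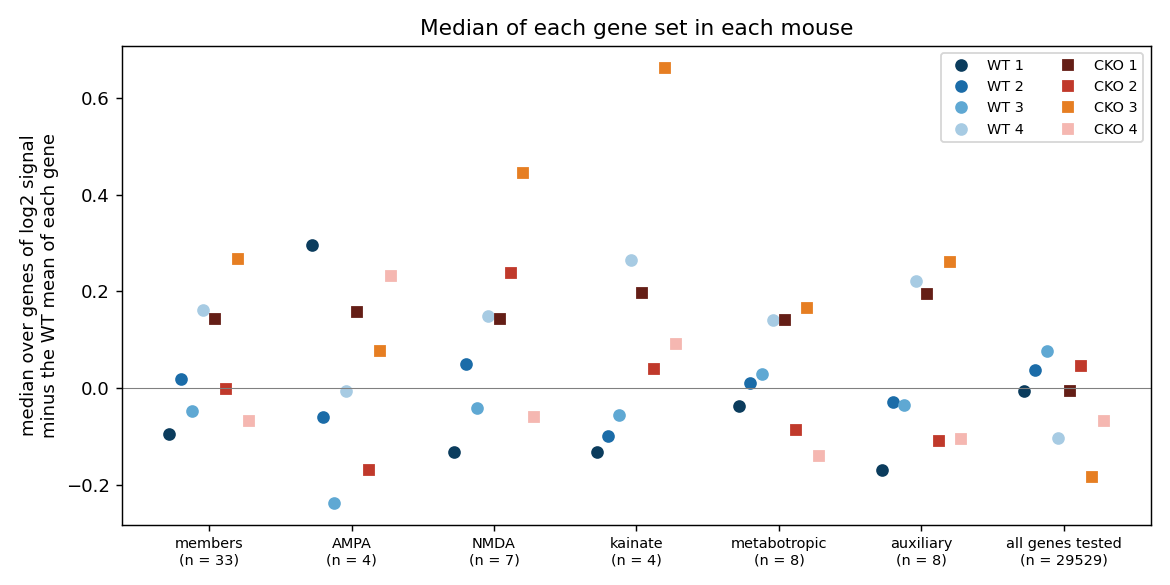
Median over all measured members, over each of 5 families and over all genes tested (horizontal axis), in each mouse, of the normalized log2 signal minus the gene's WT mean (vertical axis), for the 4 WT and 4 CKO mice. CKO 3 is the highest mouse for the kainate family at 0.66, and in each of the 5 families some CKO mice lie within the WT range.

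Of the other genes of glutamatergic transmission, in 4 lists, none passed the adjusted threshold (limma). At an unadjusted p under 0.05 there were 3 genes over the 4 lists, 1 in each of 3 lists, where 5.3% of all genes were, and they are named only to account for them. Of 20 postsynaptic scaffold and signalling genes all 20 had positive differences, with a median of 0.17. To be set beside this and the other lists, 41.5% of all genes were positive. By signal, the median over all genes was 0.14 in group 9 and 0.16 in group 10, the brightest. The signal groups of the listed genes are not given. With quantile normalization 14 of the 20 were positive (median 0.12) and with the authors' deposited values 10 (median 0.016). Homer2, a scaffold that links group I metabotropic receptors to calcium stores, was the only 1 of the 20 with an unadjusted p under 0.05 (0.45, SE 0.14, unadjusted limma p 0.0109). Dlg4, the gene of PSD-95, differed by 0.18 (SE 0.35) and Camk2a by 0.057 (SE 0.19).

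Of 20 genes of receptor trafficking and further auxiliary proteins 19 were measured and 13 were positive, with a median of 0.093. The AMPA receptor anchor Grip2 was the only one with an unadjusted p under 0.05 (-0.45, SE 0.18, unadjusted limma p 0.0344). Of 15 genes of glutamate transport and metabolism 12 were positive, with a median of 0.23 and none at an unadjusted p under 0.05. The vesicular transporter gene Slc17a7 differed by 0.24 (SE 0.19). Of 11 genes of group I metabotropic signalling 10 were positive, with a median of 0.12, and Rgs4, which shortens Gq signals, had the only unadjusted p under 0.05 (0.40, SE 0.17, unadjusted limma p 0.0476). With the authors' deposited values 8 of 19, 9 of 15 and 6 of 11 genes of these 3 lists were positive.

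Markers of the cells that should and should not carry the tag were both present. The 8 excitatory neuron markers had a median difference of 0.21 and a summed level of 3.65 to 3.89 in WT and 3.75 to 4.12 in CKO mice. Of 8 astrocyte markers 7 were measured (Gja1 was not well above background on any array), with a median of 0.17 and a summed level of 1.87 to 2.01 in WT and 1.98 to 2.43 in CKO mice. The 8 oligodendrocyte markers had a median of 0.18, with summed levels of 2.27 to 2.70 and 2.38 to 2.52, and the 8 microglia markers a median of 0.11, with summed levels of 3.01 to 3.44 and 3.23 to 3.70. For these lists the per-mouse ranges of the groups overlapped. With quantile normalization the medians of these lists, in the order given, were 0.096, 0.15, 0.19 and 0.18. With the authors' deposited values they were -0.0061, 0.12, 0.17 and 0.21. The part of RNA from other cells in the members' values was not tested, and RNA from whole hippocampus lysates was not analysed here.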

How the data were processed

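The 8 arrays are 1-colour Agilent arrays labelled with Cy5 after whole transcriptome amplification, per the labels' protocols. The deposited files give spot intensity, extracted with Feature Extraction 11.5 per the submitters' processing notes, with background subtraction and detrending per the file headers. The authors also deposited a table of linear intensity per spot. In it 11030 to 15474 of the 62976 spots per array were blank, most of all on CKO 3. Over the filled non-control spots the array medians were 1309, 1313, 1263 and 1645 (WT 1 to 4) and 1507, 1362, 1987 and 1561 (CKO 1 to 4). These medians leave out the blank spots and do not rank the arrays by brightness. The table's scale is linear, its direction is that of the signal, while its centring and normalization are unknown: not given in the sources used here.

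Here, outlier spots were dropped, log2 intensities were set relative to each array's 75th percentile, and spots of a probe were averaged. A probe was kept if it was well above background on 4 or more of the 8 arrays (44316 of 55663), and the brightest probe stood for a gene (29529 genes). Probes were named by accession through a table of assembly GRCm38.p6, used for names alone (28331 matched). A probe whose accession was not found kept its name from the array files. None of the 52 member probes was given a different name by accession.

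CKO and WT were compared in a two-sided limma fit (lmFit, then eBayes; limma 3.58.1, R 4.3.3). P-values were adjusted by Benjamini-Hochberg across the whole table, with 0.05 as the threshold. The fit was tested on simulated data. Members and lists were chosen with earlier results of these data known. Values in every mouse are given for the 2 members of each family with the smallest p, except that of the delta receptors only Grid1 is given. Group means are given for Grik1, which was not well above background on any CKO array. For Ctcf the group difference is given. The second probes of Grin3a, Gria2 and Grin2b, and the genes of the other lists that are named, were chosen after their values were seen. The mice are labelled biological replicates, and their number limits the precision. Camk2a and Slc17a7 are in a pathway list and in the excitatory neuron markers, and Slc1a2 and Slc1a3 are in the transport list and in the astrocyte markers. Some members and list genes are not reported here by name. Further marker lists had median differences of 0.31 (CA1), 0.16 (CA2), 0.011 (oligodendrocyte precursors) and -0.071 (endothelium). Alternatives were other scalings, background correction, filters, probe summaries, slide, sex and replicate blocks, other variance models and each array left out. Nptxr was not measured.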

Additional observations from a re-analysis of the deposited data

Results flagged for a closer look

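In 7 of 70 groups of 4 mice, 1 mouse lay far from the other 3 by Dixon's test, which chance alone flags in about 1 of 20 groups. CKO 3 was the mouse in question for Gria4 (0.74, nearest 0.63), Grik4 (1.96, nearest 1.13) and Cacng3 (2.36, nearest 2.04), each time above the other CKO mice. For Cnih2 CKO 4 was low, at 4.18 against 4.60 for the nearest. For Grid1 WT 4 was high, at 1.28 against 1.05. For Grm6 WT 4 was low in its group at -7.72 (nearest -4.74) and CKO 1 high in its group at -4.51 (nearest -7.36), where the low values are spots not above background.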

How the results depend on the processing

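In none of the 25 alternatives did a member pass the adjusted threshold; the smallest adjusted p was 0.290, for Neto2 with array weights (limma). The sign of the difference was the same in all 25 for 11 members and changed in some for the other 22. The count of genes past the threshold, 1 in the main setting, was 0 with quantile normalization, the authors' deposited values, males only, within slide 2, the replicate block, and a slide block after quantile normalization (added after seeing the data). It was 2 without the filter on dim probes, 3 with sex as a covariate, 4 with normexp or a trended and robust prior, 5 with probes well above background on all 8 arrays, 11 with array weights and 13 with the slide as a random block. With 1 array left out it was 0 to 2. The count of members at an unadjusted p under 0.05, 1 in the main setting, was 3 with quantile normalization, normexp, or a slide block after quantile normalization. It was 2 with the authors' deposited values, the all-array filter, sex as a covariate, the slide as a random block, the trended and robust prior, or array weights, and 0 within slide 3, in males only and with the replicate block. With 1 array left out it was 0 to 2. The cause of these moves was not tested. The share of all genes at an unadjusted p under 0.05 (limma) is given for the main setting alone, 5.3%. The member counts of the alternatives thus have no background beside them and are not read as a result about the members. The members' median stayed between -0.072 and 0.21 and their count of intervals within 1 between 23 and 32. Median scaling moved the median of all genes from -0.078 to 0.065.

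The labels were not taken to pair the mice by replicate number. Deviations of same-numbered mice 1 to 4 correlated at -0.32, 0.39, -0.42 and 0.068. Those numbered 2 and 4 shared a slide and those numbered 1 and 3 did not, so pairing and slide cannot be told apart here. With the number as a block Grin3a had an unadjusted limma p of 0.106. Leaving out 1 mouse leaves 3 in its group. Signal over background limits Grik1 and Grm6 only; for the other members the 4 mice per group limit what can be seen, and a missed threshold does not show that values were equal. Grm6 has no value with the all-array filter.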
